A study of Mus musculus with 8 samples.

Results

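The genes described are 10 of the heterogeneous nuclear ribonucleoproteins (hnRNPs), chosen by name from the 55385 genes counted. They are *Hnrnpa0*, *Hnrnpa1*, *Hnrnpa2b1*, *Hnrnpa3*, *Hnrnpc*, *Hnrnpd*, *Hnrnph1*, *Hnrnpk*, *Hnrnpl* and *Hnrnpu*. Each symbol matched 1 gene identifier, and all 10 passed the filter on low counts.

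hnRNPs are abundant RNA-binding proteins that coat nascent transcripts in the nucleus. They bind splice-regulatory sequences in introns and exons and can promote or repress the use of nearby splice sites, and several of them also act in polyadenylation, export and mRNA decay. Many hnRNP genes regulate the splicing of their own transcripts, some through isoforms that are degraded by nonsense-mediated decay.

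The study asked how mouse embryonic stem cells (mESCs) respond when the splicing machinery is disturbed by knockdown (KD) of *Eftud2*, a GTPase of the U5 small nuclear ribonucleoprotein. R1 mESCs of wild-type genotype were grown in N2B27 medium with 2i and Lif on plates coated with poly-L-ornithine and laminin. They were infected for 2 days with lentivirus carrying shRNA1, which targets the 3′ UTR of *Eftud2*, shRNA2, which targets its coding sequence, or a non-targeting hairpin (nt-shRNA), and were then kept under puromycin for 3 days. All groups thus share the infection and the selection, and all come from 1 cell line. The libraries numbered 3 for shRNA1, 3 for shRNA2 and 2 for nt-shRNA, each labelled a biological replicate, and only poly(A) RNA was sequenced.

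Libraries held between 19569525 and 29871048 counts, and a member had between 4969 and 37965 counts in a library. *Eftud2* itself was at 262 and 256 CPM with nt-shRNA, at 232, 229 and 225 with shRNA1, and at 198, 202 and 235 with shRNA2, where CPM are counts scaled to a common library size with edgeR's TMM factors. No hairpin library reached the nt-shRNA level, and shRNA2 replicate 3 lay above all 3 shRNA1 libraries. The log2 fold change was -0.18 ± 0.07 (SE) with shRNA1, which missed the threshold (edgeR adjusted p = 0.0514), and -0.29 ± 0.07 with shRNA2 (adjusted p = 0.00122). These are changes of -11.7% and -18.3%. The paper reports a larger knockdown of *Eftud2* by qPCR with each hairpin, and less EFTUD2 protein on western blots. Why the measures differ was not tested. All 8 genes of a list of embryonic stem cell markers were above 1 CPM in every library, with a summed level of 6583 to 6974 CPM, while the summed levels of the fibroblast, endoderm, neural and mesoderm marker lists were between 15.4 and 77.7 CPM. Single markers moved within these sums: from nt-shRNA to shRNA2 the mean of *Klf4* went from 185 to 460.4 CPM, that of *Nanog* from 912 to 1549, that of *Dppa5a* from 2453 to 1258, that of *Nes* from 58.9 to 22.7 and that of *Tubb3* from 10.2 to 30.5. Their part in the hnRNP results was not tested. In bulk RNA, a change in the mix of cells and a change in RNA per cell cannot be told apart.

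In nt-shRNA cells these genes were among the most abundant transcripts. On the TPM scale, where counts are divided by exon length and brought to a common sum, *Hnrnpa1* was highest at 1200 ± 112 (SD, n = 2) and ranked 108 of the 17445 genes tested. Below it, with no overlap between the libraries of neighbouring genes, came *Hnrnpa3* at 666 ± 31.0 TPM, *Hnrnpa2b1* at 499 ± 47.2, *Hnrnpc* at 411 ± 13.0 and *Hnrnpa0* at 354 ± 18.9. *Hnrnpk* (289.6 ± 18.6 TPM), *Hnrnpu* (264 ± 16.8) and *Hnrnpl* (263 ± 19.0) followed, and the range of *Hnrnpl* overlapped those of both others. *Hnrnph1* at 105 ± 14.7 TPM and *Hnrnpd* at 85.4 ± 12.8 TPM were lowest and overlapped each other. *Hnrnpd* still ranked 1956 of 17445, so that all 10 lay far above the middle of the expressed genes.

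This order shifted at a few places in the KD cells. *Hnrnpa2b1* overlapped *Hnrnpa3* with shRNA1, at 707 ± 51.5 and 718 ± 33.8 TPM (n = 3 each), and stood above it with shRNA2, at 837 ± 9.82 and 724 ± 46.7 TPM with ranges that did not overlap. Of the 100-base stretches of *Hnrnpa3* transcripts, 25.6% also occur in other genes, against 0 for *Hnrnpa2b1*. Fragments of several alignments were left uncounted, so the order of this pair is uncertain. *Hnrnpu* stood above *Hnrnpk* in both KD groups, at 353 ± 19.996 and 331 ± 23.5 TPM with shRNA1, where their ranges overlapped, and at 408 ± 3.35 and 378 ± 4.67 TPM with shRNA2, where they did not. TPM levels were not compared between groups, because the median TPM of all tested genes was itself 0.20 higher on a log2 scale (pseudocount 0.5) in each KD group than with nt-shRNA. Fold changes and tests between groups below rest on the counts, and levels are given in CPM. Ratios and shares taken within a library are named as such.

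Annotated positions and promoters are given for the gene that rose most against nt-shRNA and for the most abundant one. *Hnrnpd* (ENSMUSG00000000568.15), which encodes AUF1, a protein that binds AU-rich elements and regulates mRNA decay, lies on chromosome 5 of GRCm38 from 99955935 to 99978938 on the minus strand. *Hnrnpa1* (ENSMUSG00000046434.16), a repressor of many exons that is known for opposing SR proteins, lies on chromosome 15 from 103240432 to 103246692 on the plus strand. Below are the 250 bases upstream of the RefSeq start of each (GRCm38.p6), at chr15:103240147-103240396 on the plus strand for *Hnrnpa1* and chr5:99978939-99979188 on the minus strand for *Hnrnpd*. Capitals mark the letters CCAAT.
Hnrnpa1: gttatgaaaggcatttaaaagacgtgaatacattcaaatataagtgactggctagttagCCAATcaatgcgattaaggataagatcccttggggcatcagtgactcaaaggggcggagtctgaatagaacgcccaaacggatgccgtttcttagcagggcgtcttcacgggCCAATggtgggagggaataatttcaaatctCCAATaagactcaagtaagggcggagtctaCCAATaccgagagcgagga
Hnrnpd: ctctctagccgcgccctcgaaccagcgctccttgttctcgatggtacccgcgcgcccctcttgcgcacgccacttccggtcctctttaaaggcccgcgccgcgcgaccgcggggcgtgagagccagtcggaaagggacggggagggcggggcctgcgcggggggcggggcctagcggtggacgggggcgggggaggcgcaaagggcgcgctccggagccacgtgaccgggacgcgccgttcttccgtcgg

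The *Hnrnpa1* window held CCAAT 4 times and had a GC content of 46.0%, whereas the *Hnrnpd* window held none and had a GC content of 74.4%. On either strand (ATTGG being the reverse), CCAAT was found upstream of 8 of the 10 genes, against 37.5% of the 27025 genes with an entry. *Hnrnpd* and *Hnrnpu* were the 2 without it. *Hnrnpc* and *Hnrnpl* also held 4 matches, a number reached by 0.840% of the 32851 entries. The motif was chosen after these promoters had been read, and a match is a description of the letters only.

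With shRNA1, 3 of the 10 genes rose, none fell and 7 did not pass the test. Over all 17445 genes tested, 13.8% were called higher and 17.1% lower in this comparison. The genes that rose were *Hnrnpa2b1*, *Hnrnpd* and *Hnrnpu*. A further member, *Hnrnpl*, had an unadjusted p under 0.05 with a log2 fold change of -0.15. Without nt-shRNA replicate 1 the count was 1 (*Hnrnpd*). The median log2 fold change of the 10 was -0.03, beside -0.01 for all genes, with a range of -0.15 to 0.45.

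With shRNA2, 5 of the 10 rose and none fell, where 27.2% of all genes were called higher and 28.7% lower. Their median log2 fold change was 0.15, beside 0.00 for all genes, and the range was -0.10 to 0.91. Compared directly, 7 of the 10 were higher with shRNA2 than with shRNA1 and none was lower (median 0.18, range 0.02 to 0.46), where 16.9% of all genes were called higher and 18.7% lower. No member changed by 2-fold or more in these comparisons, and with library size alone the log2 fold change of *Hnrnpd* with shRNA2 was 1.001. Both hairpins were compared with the same nt-shRNA libraries, so the first of these comparisons and the second are not independent.

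**Figure D1:**
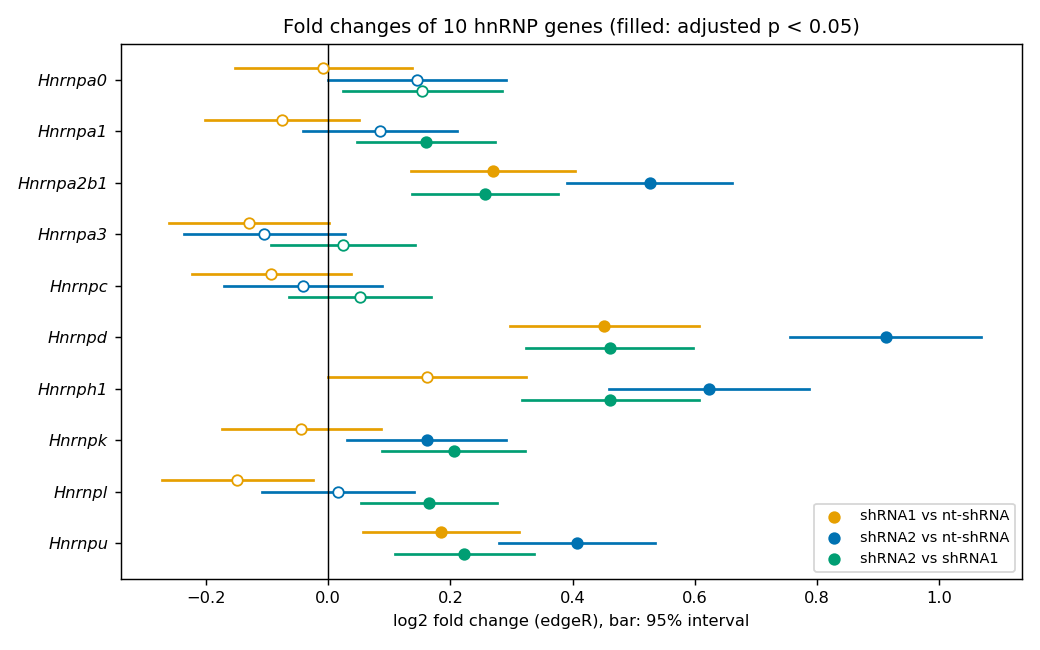
Log2 fold change (horizontal axis, edgeR) of each of the 10 hnRNP genes in the 3 comparisons, with 95% intervals as bars and filled points for an adjusted p under 0.05. *Hnrnpd* has the highest values against nt-shRNA, at 0.45 with shRNA1 and 0.91 with shRNA2, and no filled point lies below 0.

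Together the 10 genes took 0.680% and 0.700% of all counts with nt-shRNA, 0.791%, 0.772% and 0.737% with shRNA1, and 0.857%, 0.871% and 0.847% with shRNA2. The 3 groups did not overlap in this share. After TMM scaling the summed level was 7279 ± 9.84 CPM (SD, n = 2) with nt-shRNA, 7475 ± 263 with shRNA1 (n = 3) and 8517 ± 187 with shRNA2 (n = 3), and here shRNA1 replicate 3, at 7221 CPM, lay below both nt-shRNA libraries.

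*Hnrnpd* moved most against nt-shRNA. It was at 204 and 228 CPM with nt-shRNA, at 315, 306 and 266 with shRNA1, and at 399.5, 424 and 395 with shRNA2. No groups overlapped, and the lowest hairpin library was shRNA1 replicate 3. How many of all genes tested separate by group in this way was not counted, here or for the genes below. The log2 fold change was 0.45 ± 0.07 (SE) with shRNA1 (adjusted p = 1.4e-04), a rise of 36.8%, and 0.91 ± 0.07 with shRNA2 (adjusted p = 8.7e-09), a rise of 88.3%. The level with shRNA2 exceeded that with shRNA1 by 0.46 ± 0.07 (adjusted p = 3.7e-05). Of its 7354 exonic bases, 465 overlap the opposite-strand gene *Gm17092*, whose reads an unstranded count cannot separate. In GENCODE M21, 4 of its 11 transcripts are annotated as targets of nonsense-mediated decay. So are 2 of 5 transcripts of *Hnrnpa1* and 3 of 9 of *Hnrnpu*, but 0 of 18 of *Hnrnph1*. Which isoforms carried the rise of *Hnrnpd* was not tested.

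Among the A/B group, which holds the core proteins of the hnRNP particle, *Hnrnpa2b1* passed the test against nt-shRNA, and the other 3 genes did so only under the alternatives named with them, if at all. This gene, whose product binds purine-rich RNA and has roles in splicing, RNA transport and microRNA processing, was at 1113 and 1149 CPM with nt-shRNA, at 1446, 1366 and 1279 with shRNA1, and at 1627, 1673 and 1586 with shRNA2. The 3 groups again did not overlap. It rose by 20.6% with shRNA1 (log2 fold change 0.27 ± 0.06, adjusted p = 0.00351) and by 44.0% with shRNA2 (0.53 ± 0.06, adjusted p = 1.4e-06), and was higher with shRNA2 than with shRNA1 (0.26 ± 0.06, adjusted p = 0.00187). Without nt-shRNA replicate 1 the shRNA1 call was lost, with a log2 fold change of 0.25 and an adjusted p of 0.0507. It lies on chromosome 6 from 51460932 to 51469894 and shares no exonic base and no 100-base stretch of transcript with another annotated gene.

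*Hnrnpa1* was at 1282 and 1323 CPM with nt-shRNA, at 1274, 1211 and 1223 with shRNA1, and at 1347, 1439 and 1357 with shRNA2. The nt-shRNA libraries stood between those of the hairpins. The log2 fold change was -0.08 with shRNA1 (95% interval -0.20 to 0.05, adjusted p = 0.363) and 0.08 with shRNA2 (-0.04 to 0.21, adjusted p = 0.244). With library size alone the shRNA2 value was 0.17 and passed (adjusted p = 0.0140). Directly compared it was higher with shRNA2 than with shRNA1 by 0.16 ± 0.05 (adjusted p = 0.0262). That call was lost without shRNA1 replicate 2, shRNA2 replicate 1 or shRNA2 replicate 2, where the adjusted p was 0.0813, 0.0549 and 0.110.

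*Hnrnpa3*, a close relative of *Hnrnpa1* and *Hnrnpa2b1*, was at 1263 and 1218 CPM with nt-shRNA, at 1186, 1110 and 1107 with shRNA1, and at 1189, 1089 and 1184 with shRNA2. All hairpin libraries lay below both nt-shRNA libraries. The log2 fold changes were -0.13 (95% interval -0.26 to 0.00) and -0.10 (-0.24 to 0.03), with adjusted p of 0.127 and 0.166, and neither passed the test. *Hnrnpa0*, which has a single exon and hence no intron to remove, was at 331 and 322 CPM with nt-shRNA, at 296, 326 and 351 with shRNA1 and at 350.4, 382 and 351 with shRNA2. Its log2 fold change was -0.01 with shRNA1 (-0.15 to 0.14, adjusted p = 0.948) and 0.15 with shRNA2 (0.00 to 0.29, adjusted p = 0.0816). The shRNA2 value passed under 4 alternatives, with library size alone (0.00628), with 10 counts in every library (0.0424), with only the groups compared (0.0456) and without shRNA1 replicate 3 (0.0423). Between the hairpins the value of 0.15 (adjusted p = 0.0612) passed without shRNA1 replicate 3 (0.0127) and with the replicate block (0.0494).

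Reads of *Hnrnpa1* and *Hnrnpa3* can also fit other loci. Of the 100-base stretches of their annotated transcripts, 25.9% and 25.6% occur unchanged in transcripts of 11 and 25 other genes, among them *Gm10052* for *Hnrnpa1* and *Gm5641* for *Hnrnpa3*. Fragments with more than 1 alignment were left uncounted, so the levels of these 2 genes are uncertain. The same share was 11.9% for *Hnrnpk*, 5.14% for *Hnrnpu*, 3.65% for *Hnrnpd*, 2.33% for *Hnrnpc*, 0.788% for *Hnrnph1*, 0.320% for *Hnrnpl* and 0 for *Hnrnpa0* and *Hnrnpa2b1*.

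Ratios of counts within a library do not depend on the scaling between libraries. *Hnrnpa2b1* had 0.868 and 0.869 counts per count of *Hnrnpa1* with nt-shRNA, 1.13, 1.13 and 1.05 with shRNA1, and 1.21, 1.16 and 1.17 with shRNA2. In every nt-shRNA library *Hnrnpa1* had the more counts, and in every hairpin library *Hnrnpa2b1* did. Divided by exon length, the mean ratio was 0.416, 0.528 and 0.565 in the nt-shRNA, shRNA1 and shRNA2 groups. *Hnrnpa1* thus stayed the higher of the pair per base in each group. The ratio of *Hnrnpa2b1* counts to *Hnrnpa3* counts was 0.881 and 0.943 with nt-shRNA, 1.22, 1.23 and 1.16 with shRNA1, and 1.37, 1.54 and 1.34 with shRNA2. For a single ratio, the exact permutation test of 3 libraries against 2 cannot give a one-sided p below 0.1, nor can 3 against 3 give a two-sided p below 0.1.

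**Figure D2:**
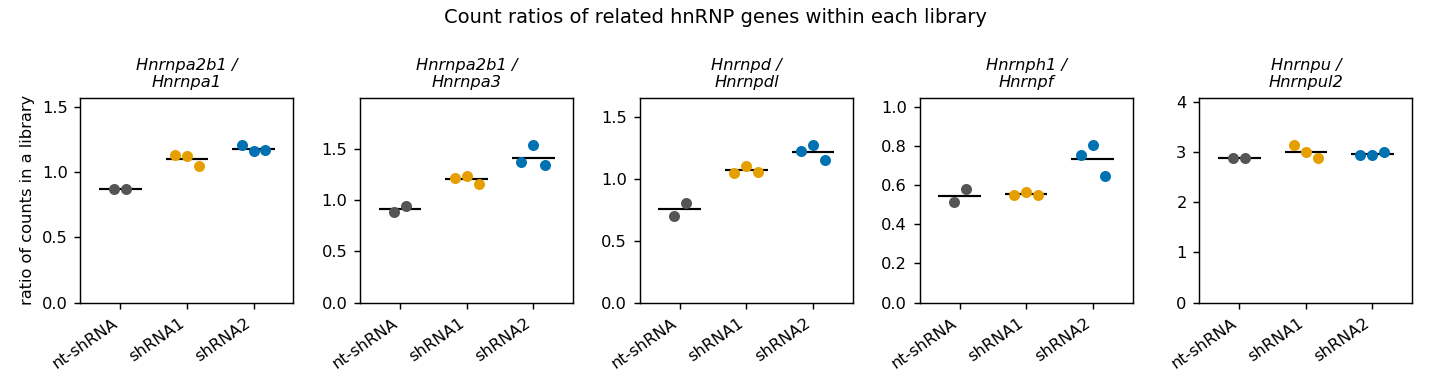
Ratio of the counts of 2 related hnRNP genes within each library (vertical axis, no unit), as points by group with a line at the mean. *Hnrnpa2b1* per *Hnrnpa1* lies below 1 in both nt-shRNA libraries and above 1 in all 6 hairpin libraries, while *Hnrnpu* per *Hnrnpul2* averages 2.89, 3.01 and 2.96 in the nt-shRNA, shRNA1 and shRNA2 groups. The counts are not divided by exon length.

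*Hnrnph1*, which binds runs of G near splice sites, was at 199.95 and 220.3 CPM with nt-shRNA, at 243, 245 and 217 with shRNA1, and at 333, 349 and 289.9 with shRNA2. The shRNA2 libraries stood above all others, and shRNA1 replicate 3 fell between the nt-shRNA libraries. It rose by 54.1% with shRNA2 (log2 fold change 0.62 ± 0.08, adjusted p = 1.8e-06) and was higher with shRNA2 than with shRNA1 by 0.46 ± 0.07 (adjusted p = 6.3e-05). With shRNA1 the value was 0.16 (95% interval 0.00 to 0.32, adjusted p = 0.123), and without shRNA1 replicate 3 it was 0.22 and passed (adjusted p = 0.0369). It also passed with the replicate block (0.23, adjusted p = 0.00730) and with library size alone (0.28, adjusted p = 0.0120).

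*Hnrnpu*, which encodes the nuclear scaffold attachment factor SAF-A, was at 1060 and 1048 CPM with nt-shRNA, at 1243, 1211 and 1140 with shRNA1, and at 1384, 1438 and 1373 with shRNA2, with no overlap between groups. It rose by 32.7% with shRNA2 (log2 fold change 0.41 ± 0.06, adjusted p = 1.5e-05) and by 13.7% with shRNA1 (0.18 ± 0.06, adjusted p = 0.0266). The shRNA1 call was lost without shRNA1 replicate 1 or 2 or without either nt-shRNA library, where the adjusted p was 0.0945, 0.0732, 0.110 and 0.139. Between the hairpins the difference was 0.22 ± 0.05 (adjusted p = 0.00361). Of its 11599 exonic bases, 804 overlap *Cox20* on the opposite strand.

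*Hnrnpk* and *Hnrnpl* differed between the hairpins. *Hnrnpk*, a KH-domain protein that binds C-rich RNA and is known as a partner of p53 in transcription, was at 649 and 642 CPM with nt-shRNA, at 659, 633 and 587 with shRNA1, and at 723, 740.3 and 702 with shRNA2. All shRNA2 libraries were above all others. It rose by 11.8% with shRNA2 (log2 fold change 0.16 ± 0.06, adjusted p = 0.0348) and was 0.21 ± 0.06 higher than with shRNA1 (adjusted p = 0.00774), while the shRNA1 value was -0.04 (95% interval -0.17 to 0.09, adjusted p = 0.627). The rise with shRNA2 was lost without shRNA2 replicate 1 or 2 or without either nt-shRNA library, where the adjusted p was 0.0776, 0.0760, 0.116 and 0.157, and with no filter on low counts (0.0706). Of its exonic bases, 330 overlap *Rmi1* on the opposite strand.

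*Hnrnpl*, which binds CA repeats, was at 540.5 and 540.7 CPM with nt-shRNA, at 479, 502 and 482 with shRNA1, and at 534, 574 and 532 with shRNA2. The shRNA1 libraries were the lowest, and the shRNA2 libraries lay on both sides of the nt-shRNA pair. The log2 fold change was -0.15 with shRNA1 (95% interval -0.27 to -0.02, adjusted p = 0.0641) and 0.02 with shRNA2 (-0.11 to 0.14, adjusted p = 0.836), and shRNA2 exceeded shRNA1 by 0.16 ± 0.05 (adjusted p = 0.0217). This last call was lost without shRNA1 replicate 1 or shRNA2 replicate 2, where the adjusted p was 0.0686 and 0.0992.

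*Hnrnpc*, whose product binds runs of U and forms tetramers that package pre-mRNA, passed no test. It was at 630.0 and 595 CPM with nt-shRNA, at 606, 548 and 569 with shRNA1, and at 595, 610.5 and 579.8 with shRNA2, and the groups overlapped. The log2 fold change was -0.09 with shRNA1 (95% interval -0.22 to 0.04, adjusted p = 0.272), -0.04 with shRNA2 (-0.17 to 0.09, adjusted p = 0.590) and 0.05 between the hairpins (-0.06 to 0.17, adjusted p = 0.498).

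**Figure D3:**
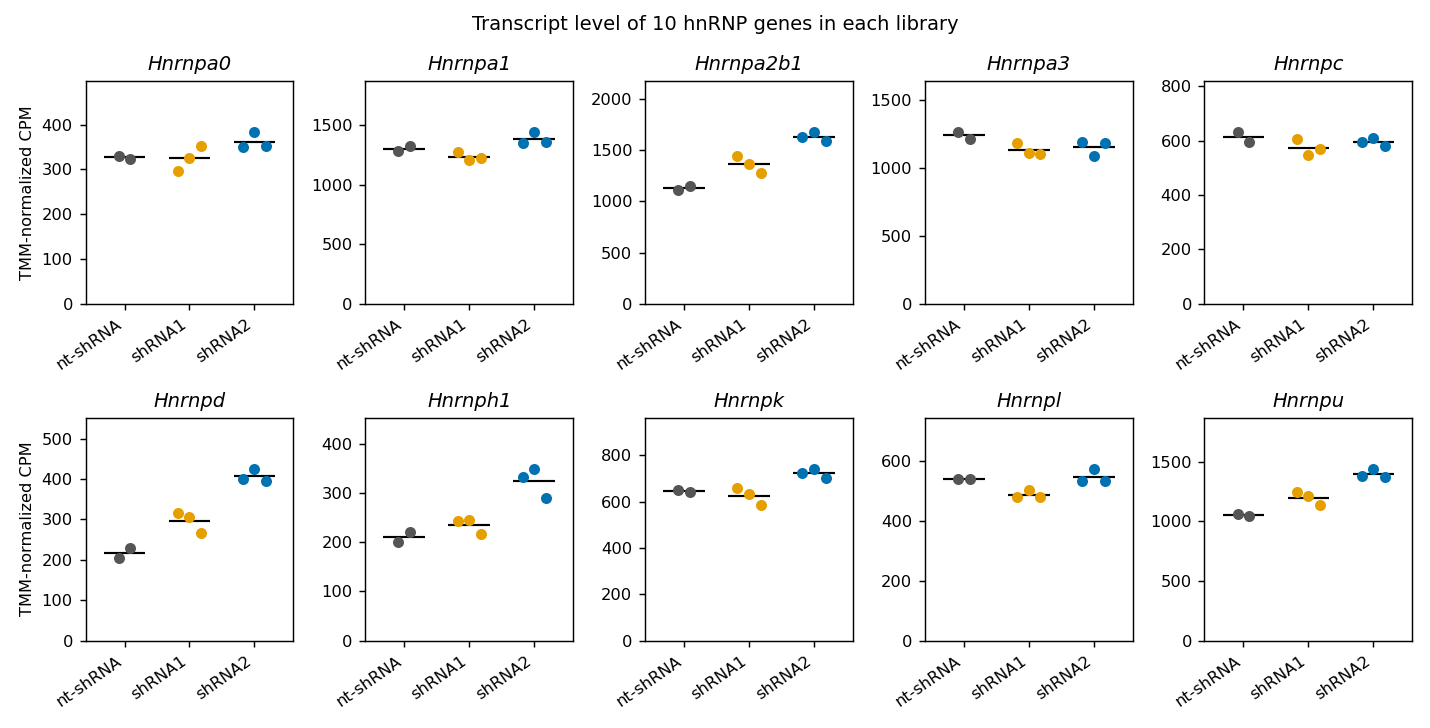
TMM-normalized CPM (vertical axes, from 0) of each of the 10 hnRNP genes in every library, as points by group with a line at the group mean. *Hnrnpd*, *Hnrnpa2b1* and *Hnrnpu* have 3 separate groups in the order nt-shRNA, shRNA1, shRNA2, and the groups of *Hnrnpc* overlap. The share of all genes that separate in this way was not counted.

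The share of each gene in the summed TPM of the 10 was also read within each library. The share of *Hnrnpd* was 1.95% and 2.17% in the nt-shRNA libraries and 3.40% to 3.50% with shRNA2. That of *Hnrnpa2b1* was 11.9% and 12.2% with nt-shRNA and 15.3% to 15.5% with shRNA2. *Hnrnpa3* took 16.4% and 15.8% with nt-shRNA and 12.2% to 13.9% with shRNA2, and *Hnrnpa1* took 28.6% and 29.4% with nt-shRNA and 26.8% to 27.7% with shRNA2. These shares are bound to sum to a whole, so a larger share of 1 gene lowers those of the others.

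Of a list of 16 other genes of the hnRNP family, 3 rose and 3 fell with shRNA1, 10 rose and 1 fell with shRNA2, and 10 were higher and 1 lower with shRNA2 than with shRNA1. Beside these stand the shares of all genes given above, 13.8% higher and 17.1% lower with shRNA1, 27.2% and 28.7% with shRNA2, and 16.9% and 18.7% between the hairpins. The count of 6 with shRNA1 fell to between 1 and 3 without shRNA1 replicate 1 or 2, shRNA2 replicate 1 or either nt-shRNA library. The median log2 fold changes of the 16 were 0.03, 0.21 and 0.22. *Hnrnpr*, *Hnrnpm*, *Syncrip* and *Hnrnph3* passed the test in all 3 comparisons, the first 3 of them upwards and *Hnrnph3* downwards. *Hnrnpr* was at 112 and 105 CPM with nt-shRNA, at 128, 136 and 116 with shRNA1 and at 189, 188 and 165 with shRNA2. No groups overlapped.

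*Hnrnpr* rose by 0.22 ± 0.07 and 0.74 ± 0.08 (SE) on the log2 scale with shRNA1 and shRNA2 (adjusted p = 0.0288 and 1.5e-07), *Hnrnpm* by 0.19 and 0.63, and *Syncrip*, the hnRNP Q gene and the closest relative of *Hnrnpr*, by 0.30 and 0.61. The shRNA1 calls of these 3 genes were lost in some fits with 1 library left out: for *Hnrnpm* without shRNA1 replicate 1 or 2, shRNA2 replicate 1 or either nt-shRNA library (adjusted p 0.0619 to 0.227), for *Hnrnpr* without shRNA1 replicate 1 or 2 or either nt-shRNA library (0.0687 to 0.214), and for *Syncrip* without nt-shRNA replicate 1 (0.0617).

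*Hnrnph3*, a shorter member of the H/F group, went the other way from *Hnrnph1*. It was at 67.8 and 72.6 CPM with nt-shRNA, at 53.5, 53.9 and 60.2 with shRNA1, and at 46.7, 44.7 and 49.2 with shRNA2, with no overlap. It fell by 20.3% with shRNA1 (log2 fold change -0.33 ± 0.07, adjusted p = 0.00214) and fell by 33.3% with shRNA2 (-0.58 ± 0.07, adjusted p = 1.9e-06). *Hnrnpll*, the paralog of *Hnrnpl*, had log2 fold changes of -0.17 (adjusted p = 0.0348) and -0.11 (adjusted p = 0.131), and *Raly*, a relative of *Hnrnpc*, of -0.02 and -0.09 (adjusted p 0.834 and 0.208). The shRNA1 call of *Hnrnpll* was lost in 5 fits that each left out 1 library (shRNA1 replicate 2 or 3, shRNA2 replicate 1, or either nt-shRNA library), with an adjusted p between 0.0612 and 0.280, and under 5 of the 7 settings that kept every library.

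**Figure D4:**
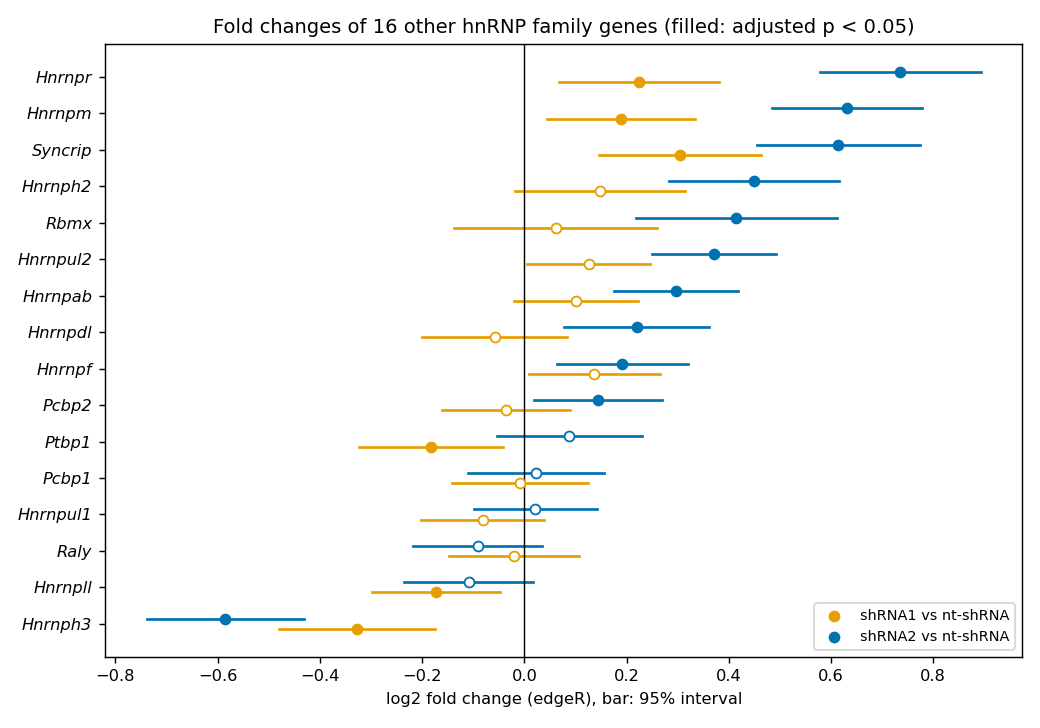
Log2 fold change (horizontal axis, edgeR) of 16 other hnRNP family genes with shRNA1 and shRNA2 against the same nt-shRNA libraries, with 95% intervals as bars and filled points for an adjusted p under 0.05. *Hnrnpr* is highest with shRNA2 at 0.74 and *Hnrnph3* lowest at -0.58.

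Close relatives of the members that rose were also read, a choice made after the values were seen. *Hnrnpab* and *Hnrnpdl*, the paralogs of *Hnrnpd*, rose with shRNA2 by 0.30 and 0.22 on the log2 scale (adjusted p = 2.6e-04 and 0.0102), and had 0.10 and -0.06 with shRNA1 (adjusted p = 0.197 and 0.547). With library size alone *Hnrnpab* was at 0.22 with shRNA1 and passed (adjusted p = 0.00564). *Hnrnpd* had 0.696 and 0.805 counts per count of *Hnrnpdl* with nt-shRNA, 1.05, 1.10 and 1.06 with shRNA1, and 1.22, 1.27 and 1.15 with shRNA2. The *Hnrnpdl* call with shRNA2 was lost without nt-shRNA replicate 2 (adjusted p = 0.0930). *Hnrnph2* and *Hnrnpf* rose with shRNA2 by 0.45 and 0.19 (adjusted p = 9.2e-05 and 0.0126), and *Hnrnpul2* by 0.37 (adjusted p = 2.3e-05). With shRNA1 these 3 genes had 0.15, 0.14 and 0.13 (adjusted p = 0.169, 0.0987 and 0.104), values that passed under 3, 3 and 2 of the alternatives, among them the replicate block for *Hnrnph2* (0.0408) and library size alone for all 3. The *Hnrnpf* call was lost without either nt-shRNA library (adjusted p = 0.0514 and 0.101). *Hnrnpul1*, another paralog of *Hnrnpu*, did not pass (-0.08 with shRNA1 and 0.02 with shRNA2, adjusted p = 0.303 and 0.772). Among the KH-domain relatives of *Hnrnpk*, *Pcbp1* did not pass (-0.01 and 0.02, adjusted p = 0.940 and 0.777), and *Pcbp2* rose with shRNA2 by 0.14 (adjusted p = 0.0467) and had -0.04 with shRNA1 (adjusted p = 0.688). The *Pcbp2* call was lost without shRNA1 replicate 1 or 2, shRNA2 replicate 1 or 2 or either nt-shRNA library (adjusted p 0.0519 to 0.334), and with no filter on low counts (0.134).

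The remaining 2 genes of the list were *Ptbp1*, the hnRNP I gene and a repressor of many exons, and *Rbmx*, the hnRNP G gene. *Ptbp1* was called lower with shRNA1 (-0.18, adjusted p = 0.0454) and higher with shRNA2 than with shRNA1 (0.27, adjusted p = 0.00196), and had 0.09 with shRNA2 (adjusted p = 0.282), which passed on library size alone (0.0216). Its shRNA1 call was lost under 9 alternatives, of which those without shRNA1 replicate 1 or 2, shRNA2 replicate 1 or nt-shRNA replicate 1 gave an adjusted p between 0.0743 and 0.403. *Rbmx* had 0.06 with shRNA1 (adjusted p = 0.662), rose by 0.41 with shRNA2 (adjusted p = 9.9e-04) and was 0.35 higher with shRNA2 than with shRNA1 (adjusted p = 0.00328).

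Of 3 genes for proteins that handle hnRNPs, none was called with shRNA1, 1 rose with shRNA2 (27.2% of all genes did) and 1 was higher with shRNA2 than with shRNA1 (16.9% of all genes). *Tnpo1* and *Tnpo2*, importins that carry hnRNP A1 and its relatives into the nucleus, passed in no comparison, at -0.02 and -0.14 on the log2 scale for shRNA1 and 0.12 and -0.13 for shRNA2. *Tnpo2* did pass with shRNA2 under 4 alternatives, among them the fit without shRNA1 replicate 3 (adjusted p = 0.0299), and with shRNA1 under 2, that fit (0.0181) and the replicate block (0.0442). *Tnpo1* passed with shRNA2 on library size alone (0.0127). *Prmt1*, the arginine methyltransferase that modifies many hnRNPs, was at 215 and 213 CPM with nt-shRNA, at 198, 202 and 209.5 with shRNA1, and at 260.2, 292 and 253 with shRNA2. It rose by 25.4% with shRNA2 (0.33 ± 0.07, adjusted p = 3.2e-04), was 0.40 ± 0.06 higher with shRNA2 than with shRNA1 (adjusted p = 4.7e-05), and had a value of -0.08 with shRNA1 (adjusted p = 0.405). Of 2 further genes for RNA-binding proteins, *Taf15* fell with both hairpins, with log2 fold changes of -0.32 (adjusted p = 4.5e-04) and -0.39 (adjusted p = 1.9e-05), and *Ewsr1* passed in no comparison (-0.09 and -0.02 against nt-shRNA).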

How the data were processed

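Poly(A) RNA-seq of R1 mESCs was read from 1 table. The authors sequenced 100 bp paired-end reads, aligned them with STAR to GRCm38 (mm10), counted fragments on GENCODE M24 exons with featureCounts 1.6.2, with no strand and no fragments of several alignments, and deposited raw counts for 55385 genes with exon lengths. Identifiers were matched to GENCODE M21 symbols for 55144 genes. No sample column was left out.

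The counts of the 8 libraries were fitted together by edgeR 4.0.16 under R 4.3.3 (filterByExpr with a minimum count of 10, leaving 17445 genes, TMM normalization, glmQLFit and glmQLFTest with a coefficient per group). A gene was called at a Benjamini-Hochberg adjusted p-value under 0.05 over all genes tested. Standard errors were derived from the F statistic. The code was tested on simulated data. TPM was computed from the counts and lengths. DESeq2 1.42.0, other scalings and filters, a replicate block and fits leaving out each library were the alternatives. The members and gene lists were chosen with earlier results of these data known. All 10 members were described, as were the other hnRNP family genes called in all 3 comparisons or among the 3 highest and 3 lowest with shRNA2, and all genes of 2 short lists (*Tnpo1*, *Tnpo2* and *Prmt1*, and *Ewsr1* and *Taf15*). The rest of the family list was chosen for description after its values were seen, and 1 gene of that list is not reported here. The p-values set a group difference against the spread between these libraries, which was estimated over all groups together and with information shared across genes. Within a group, libraries differed by a mean chi-square of 3.12 to 12.2 per gene, so none repeats another. RefSeq promoters and M21 transcripts were read with pandas 2.3.3 (Python 3.11.15), and figures drawn with matplotlib 3.10.9.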

Additional observations from a re-analysis of the deposited data

How the results depend on the processing

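No gene of the 10 was called lower in any comparison under the 15 alternatives (7 settings and 8 fits that each left out 1 library). Of their 450 fold changes there, 413 kept direction and side of the threshold, 15 lost and 10 gained a call, and 12 changed sign, none of them called. With shRNA1 the number of members called higher was between 1 and 4 when a library was left out, and that of other family genes called between 1 and 7. The shares of all genes called were not counted for any of these alternatives. The *Eftud2* log2 fold change with shRNA1 passed the threshold with no filter (-0.18), with only the groups compared (-0.16), with the replicate block (-0.21) and without shRNA2 replicate 2 or 3, with a range of -0.20 to -0.16 when a library was left out. With library size alone it was -0.065 (adjusted p = 0.498). Between the hairpins that range was -0.19 to -0.068, and the value passed without shRNA2 replicate 3.

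With library size alone the median of all genes was 0.11 with shRNA1 and 0.09 with shRNA2, and these log2 fold changes became positive: with shRNA1 *Hnrnpa0* (0.11), *Hnrnpa1* (0.038), *Hnrnpc* (0.022), *Hnrnpk* (0.070), *Hnrnpdl* (0.056), *Raly* (0.095), *Tnpo1* (0.090), *Prmt1* (0.039), *Ewsr1* (0.027), *Hnrnpul1* (0.032), *Pcbp1* (0.11) and *Pcbp2* (0.079), and with shRNA2 *Hnrnpc* (0.048) and *Ewsr1* (0.072). Between the hairpins *Tnpo2* was then -0.022, and -0.015 with no filter, -0.0032 with 10 counts in every library and -0.0042 with only the groups compared. With no filter *Hnrnpl* was -0.0068 and *Hnrnpul1* -0.0018 with shRNA2. With 10 counts in every library *Hnrnpa0* (0.023), *Raly* (0.011), *Pcbp1* (0.022) and *Tnpo1* (0.0075) with shRNA1 and *Ewsr1* (0.0086) with shRNA2 changed sign, and with only the groups compared *Hnrnpa0* (0.014), *Pcbp1* (0.014) and *Raly* (0.0018) did. When a library was left out, values spanned 0 for *Hnrnpa0* (-0.068 to 0.054), *Hnrnpk* (-0.082 to 0.0014), *Hnrnpdl* (-0.12 to 0.0063), *Tnpo1* (-0.078 to 0.034), *Raly* (-0.069 to 0.030), *Pcbp1* (-0.036 to 0.021) and *Pcbp2* (-0.080 to 0.0093) with shRNA1, for *Hnrnpl* (-0.016 to 0.038), *Hnrnpul1* (-0.011 to 0.048), *Pcbp1* (-0.0076 to 0.072) and *Ewsr1* (-0.072 to 0.044) with shRNA2, and for *Tnpo2* between the hairpins (-0.029 to 0.046).

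The replicate numbers paired the libraries weakly at most: over 7 same-numbered pairs the correlation of deviations from the group means ran from -0.035 to 0.096. Between the hairpins it was 0.045, 0.063 and 0.096 for same-numbered libraries, and from -0.10 to 0.041 for differently numbered ones. With the replicate block 4 members were higher with shRNA1, 5 with shRNA2 and 8 between the hairpins, and with shRNA1 *Tnpo1* was 0.0056 and *Pcbp1* 0.0031. The shares of all genes called with this block were not counted. Without division by length, 7 members changed place in the order of levels with nt-shRNA, which follows from their differing exon lengths. The cause of the other shifts between settings was not tested. Depth limited no member, and only 2 nt-shRNA libraries carry the comparisons with the control.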
